A study of Homo sapiens with 6 samples.

Results

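The 10 genes described here encode the calcium-dependent signalling proteins of the CaMKII, calcineurin and NFAT branches: the kinase genes CAMK2B, CAMK2D and CAMK2G, the calcineurin catalytic subunit genes PPP3CA and PPP3CB, the calcineurin regulator gene RCAN1, and the transcription factor genes NFATC1, NFATC2, NFATC3 and NFATC4. They were chosen by symbol from a table of 28092 rows, and all 10 were found and passed the filter on low counts. RNA came from heart muscle cells made from the human embryonic stem cell line H9, with 3 libraries of ADPRHL1 knockout cells (KO) and 3 of wild-type cells (WT). All were taken no later than 3 days after the cells had been re-plated. The targeted gene encodes a heart-enriched relative of the ADP-ribosylhydrolases that is regarded as a pseudoenzyme, and the study asked how its loss affects focal adhesions. The knockout allele and how many clones were used are not stated in those sources. Nothing in the labels tells whether the replicates of a group were grown separately, so each p-value reflects the variation among these libraries alone, and that variation may be technical.

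When calcium rises in a cardiomyocyte it binds calmodulin, and calcium-calmodulin switches on CaMKII, a kinase, and calcineurin, a phosphatase. CaMKII phosphorylates proteins of calcium release and uptake and class II histone deacetylases, which then leave the nucleus and free the transcription factor MEF2. Calcineurin removes phosphates from NFATC proteins, which move into the nucleus. Both branches are known drivers of hypertrophic growth in heart muscle, and RCAN1, which binds and inhibits calcineurin, is itself a known NFAT target gene. RNA levels do not measure the activity of any of these enzymes, and activity was not analysed here.

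The CaMKII genes encode closely related kinases, and the stretch around the threonine whose autophosphorylation keeps the enzyme active shows how alike they are and where reads of each gene can still be told apart. Each line gives 57 coding bases read from the longest GENCODE transcript that holds the site, all within 1 exon and on the minus strand of GRCh38, with the codon of that threonine at bases 28 to 30. Capitals mark bases that differ from CAMK2D.
CAMK2D, chr4:113513845-113513901: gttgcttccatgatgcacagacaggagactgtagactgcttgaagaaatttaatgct
CAMK2B, chr7:44241715-44241771: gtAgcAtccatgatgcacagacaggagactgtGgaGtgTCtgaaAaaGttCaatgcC
CAMK2G, chr10:73842473-73842529: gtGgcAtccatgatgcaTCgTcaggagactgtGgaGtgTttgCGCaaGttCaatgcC
CAMK2A, chr5:150250241-150250297: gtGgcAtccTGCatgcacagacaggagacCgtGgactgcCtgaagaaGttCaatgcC
CAMK2B differed from CAMK2D at 10 of these bases, CAMK2G at 14 and CAMK2A, the family member outside the 10 genes, at 11. Of those differences, 9, 11 and 8 lay at the third base of a codon. Windows of 50 bases from the longest coding transcript of each gene were searched for in every transcript of every other GENCODE gene. For 9 of the 10 genes 0 windows were shared. NFATC3 shared 25.1% of its 6279 windows, with the overlapping GENCODE transcript models AC020978.7 and AC130462.1. The annotation the authors counted on is not given, so whether these models affected its estimated count is not known.

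RefSeq gives internal starts of RCAN1 besides its distal ones, and transcription from an internal promoter is known to respond to NFAT. The 250 bases before one internal start are shown because they hold 4 matches to the NFAT core GGAAA (both strands searched), the most of any window of these genes. Capitals mark the matches, of which the first begins at base -234 and the last at base -64 relative to the start.
RCAN1 internal start, chr21:34526823-34527072, minus strand, GRCh38: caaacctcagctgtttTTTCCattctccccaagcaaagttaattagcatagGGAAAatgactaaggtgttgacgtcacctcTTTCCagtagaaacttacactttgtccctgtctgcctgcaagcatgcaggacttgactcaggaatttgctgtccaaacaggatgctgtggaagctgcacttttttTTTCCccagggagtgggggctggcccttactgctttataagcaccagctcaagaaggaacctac
NFATC2, chr20:51562840-51563089, minus strand, GRCh38: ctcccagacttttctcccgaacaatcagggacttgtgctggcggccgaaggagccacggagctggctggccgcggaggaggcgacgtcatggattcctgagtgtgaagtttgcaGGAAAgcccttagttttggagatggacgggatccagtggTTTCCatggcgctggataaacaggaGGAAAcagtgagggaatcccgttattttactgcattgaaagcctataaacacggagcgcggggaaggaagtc
Among 35116 windows of this length in the RefSeq table, 55.6% held at least 1 match and 1.87% held 4 or more. Among the 3069 windows within 2 percentage points of the same GC content, 2.67% held 4 or more. The NFATC2 window, upstream of the more distal of its annotated starts, held 3 matches, as 7.12% of all windows did or exceeded. In all, 8 of the 10 genes had an entry, with 17 windows. Of these, 5 held a match, a smaller share than the 55.6% of all windows. The RCAN1 window was picked as the highest of the 17, so shares of single windows do not tell how unusual it is. The deposited values are per gene and do not separate starts, and a match is a description of the letters only.

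The targeted gene stood at 6.40, 5.81 and 7.56 CPM in the KO libraries, against 83.7, 79.6 and 79.4 CPM in the WT libraries, which matches all 6 labels. CPM here are estimated counts relative to library size, scaled by TMM, a correction for library composition. Log2 fold changes are KO over WT by the quasi-likelihood test of edgeR, and adjusted p-values are Benjamini-Hochberg values over all genes. Estimated counts summed to between 21179650 and 21405718 per library. The labelled cell type was checked against 18 cardiomyocyte markers, all of which were detected, and 17 were lower in KO. Their summed level was 5617 to 6082 CPM in KO and 20172 to 20364 CPM in WT. The troponin T gene of the heart, TNNT2, stood at a mean of 467 CPM in KO and 1463 CPM in WT. Fewer cardiomyocytes and less RNA per cardiomyocyte cannot be told apart in bulk samples.

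Of the 10 genes, 3 were lower in KO (CAMK2D, CAMK2G and RCAN1), 2 were higher (NFATC1 and NFATC2) and 5 did not pass an adjusted p of 0.05. Across all 19558 genes tested, 57.0% passed, 28.4% higher and 28.6% lower, so the share called among the 10 is near that of all genes. The changes were also modest: the median size of the log2 fold change, whatever its sign, was 0.23 for the 10 genes, 0.38 for all genes and 0.27 for the 8435 genes whose mean lay in the same range of 15.8 to 177 CPM. Of those 8435 genes, 66.8% passed, a share somewhat above that of the 10. KO and WT values did not overlap for 6 of the 10, against 64.4% of all genes. On log2(FPKM + 1) by limma, with FPKM the authors' length-scaled values, 6 of the 10 passed, CAMK2D, CAMK2G and RCAN1 lower and NFATC1, NFATC3 and PPP3CB higher, against 58.1% of 14219 genes.

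**Figure D1:**
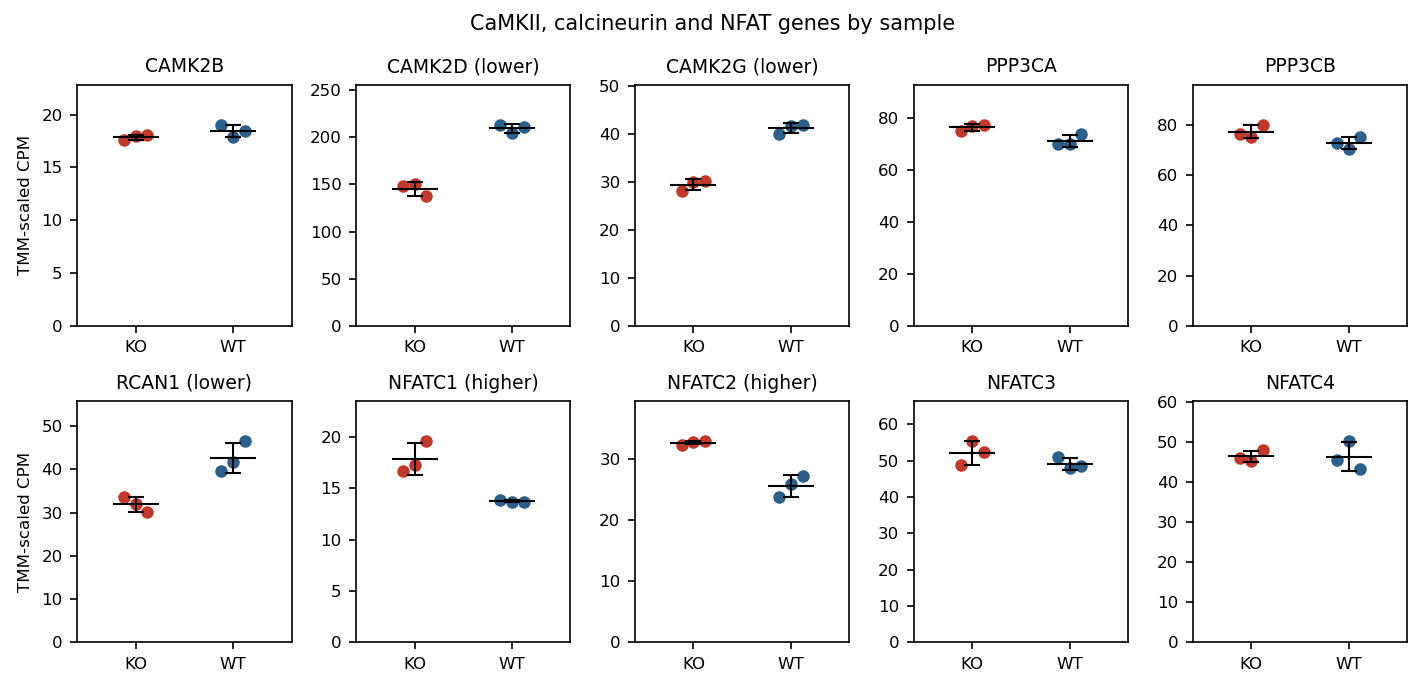
TMM-scaled CPM of each of the 10 genes in the 3 KO (left, red) and 3 WT (right, blue) libraries, with the mean (wide bar) and SD (capped bar); each panel has its own axis from 0, and genes that passed carry their direction. KO points lie below all WT points for CAMK2D, CAMK2G and RCAN1 and above them for NFATC1, NFATC2 and PPP3CA, while the other 4 genes overlap.

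CAMK2D, which encodes the main CaMKII isoform of the heart (Entrez 817; chromosome 4, 113451032 to 113761738), stood at 148, 151 and 137 CPM in KO, against 213, 204 and 211 CPM in WT. All KO libraries were below all WT libraries. The mean was 145 ± 7.15 CPM in KO and 209 ± 4.80 CPM in WT (SD, n = 3 each), which is -0.53 on the log2 scale (SE 0.050, adjusted p = 2.03e-06), a change of -30.6%. CAMK2G, which encodes the gamma isoform found in many tissues (Entrez 818; chromosome 10, 73812501 to 73874555), stood at 28.2, 30.1 and 30.2 CPM in KO, against 40.0, 41.6 and 42.0 CPM in WT. It too was lower in every KO library, by -0.48 on the log2 scale (SE 0.060, adjusted p = 2.07e-05). CAMK2B, an isoform best known from brain and skeletal muscle (Entrez 816; chromosome 7, 44217154 to 44326013), stood at 17.6, 17.98 and 18.04 CPM in KO, against 19.0, 17.9 and 18.4 CPM in WT. The groups overlapped, and the log2 difference was -0.046, with a 95% interval of -0.20 to 0.11 (adjusted p = 0.610). CAMK2A, the fourth gene of the family, stood at 7.75, 8.35 and 7.89 CPM in KO, against 15.4, 16.8 and 12.9 CPM in WT, and fell by 0.91 on the log2 scale (SE 0.11, adjusted p = 2.06e-05). The cardiomyocyte marker sum was lower in the same KO libraries, and its part in the CaMKII result was not tested.

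Compared per length, as FPKM, the 4 CaMKII genes summed to 43.3, 47.3 and 42.2 in KO, against 63.0, 61.7 and 62.2 in WT. Every KO sum was below every WT sum, and the log2 ratio of the means was -0.49 (two-sided exact permutation p = 0.1, the smallest that 3 against 3 libraries allow). CAMK2D made up 66.2 ± 0.915% of this sum in KO and 68.0 ± 0.985% in WT (SD, n = 3 each), ranges that overlapped (exact permutation p = 0.2). CAMK2B took a larger share in KO, at 11.7, 11.4 and 11.8%, against 8.72, 7.81 and 8.19% in WT. CAMK2B itself averaged 5.13 ± 0.223 FPKM in KO and 5.13 ± 0.337 FPKM in WT, so the difference of 3.35 percentage points (2.42 by summed counts) came with the lower levels of the other family genes and is no separate change. CAMK2A took 4.62 ± 0.342% in KO and 6.26 ± 0.778% in WT, and CAMK2G 17.6 ± 0.784% in KO and 17.5 ± 0.792% in WT (exact permutation p = 0.1 and 0.9).

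**Figure D2:**
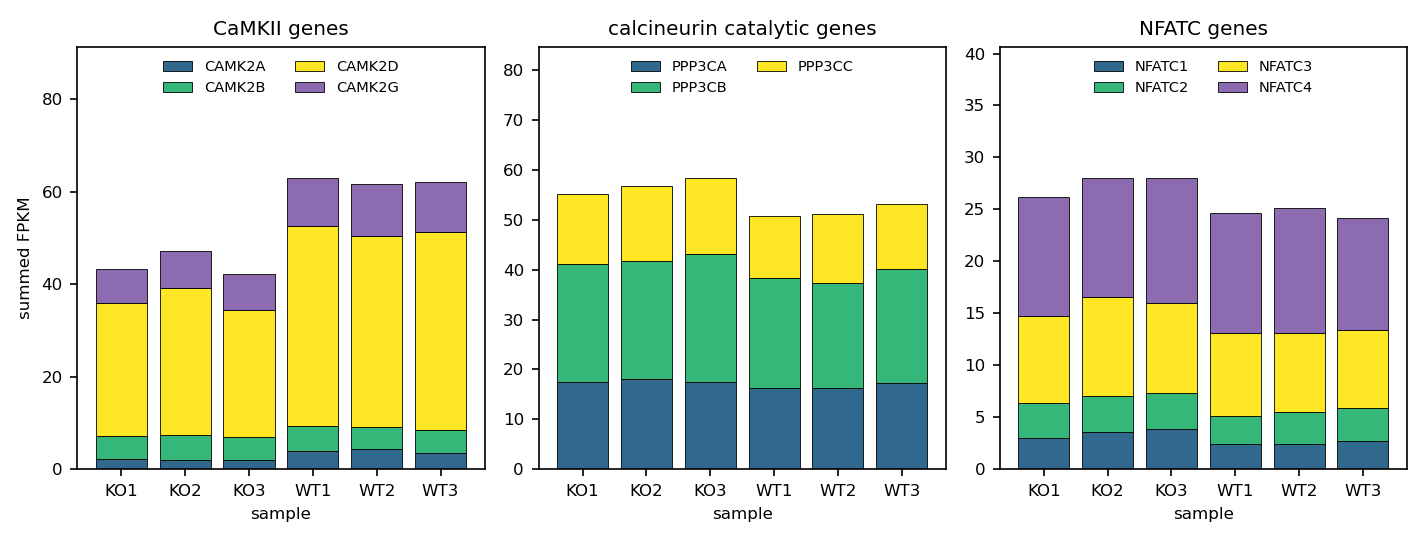
Stacked bars of the authors' FPKM, summed within each family, for the CaMKII genes, the calcineurin catalytic subunit genes and the NFATC genes in each KO and WT library. The CaMKII sum is lower in every KO library than in any WT library, while the calcineurin and NFATC sums are slightly higher.

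Calcineurin is built from a catalytic and a regulatory subunit, and its most expressed catalytic genes differed little between the groups. PPP3CA, which encodes the alpha catalytic subunit (Entrez 5530; chromosome 4, 101023418 to 101347526), stood at 75.1, 77.2 and 77.6 CPM in KO, against 70.2, 70.0 and 74.1 CPM in WT. The groups did not overlap, but the log2 difference of 0.10 did not pass (95% interval -0.0041 to 0.21, adjusted p = 0.0926). It passed with upper-quartile scaling (adjusted p = 0.0309) and with totals alone (0.0499), within a range of 0.0309 to 0.329 over 18 alternatives. PPP3CB, the beta catalytic subunit gene (Entrez 5532; chromosome 10, 73436433 to 73496024), stood at 76.5, 75.1 and 80.1 CPM in KO, against 72.9, 70.4 and 75.2 CPM in WT. KO values reached higher but overlapped with WT, and the log2 difference was 0.084 (95% interval -0.026 to 0.19, adjusted p = 0.177). On FPKM, KO and WT values of PPP3CB did not overlap (23.8, 23.7 and 25.5 in KO, against 22.04, 21.1 and 22.8 in WT), and limma on log2(FPKM + 1) gave 0.14 (adjusted p = 0.0425, in a range of 0.0425 to 0.490 over the alternatives). PPP3CB-AS1, an antisense gene overlapping PPP3CB, averaged 6.10 CPM in KO and 11.3 CPM in WT. Whether the libraries kept strand is not stated, so reads of the pair may not be separable.

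PPP3CC, the remaining catalytic subunit gene and outside the 10, averaged 35.4 ± 1.01 CPM in KO and 28.6 ± 0.340 CPM in WT (SD, n = 3 each), and rose by 0.31 (SE 0.059, adjusted p = 7.24e-04). Per length, the 3 catalytic genes summed to 55.1, 56.9 and 58.4 FPKM in KO, against 50.7, 51.1 and 53.2 FPKM in WT. No KO sum fell within the WT range (log2 ratio 0.14, exact permutation p = 0.1). PPP3CB was the largest contributor, with 42.9 ± 1.02% of the sum in KO and 42.5 ± 1.10% in WT (exact permutation p = 0.6). PPP3R1, the regulatory subunit gene, averaged 79.3 CPM in KO and 76.5 CPM in WT (log2 difference 0.053, adjusted p = 0.378).

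RCAN1 (Entrez 1827; chromosome 21, 34516442 to 34615113), whose internal start is shown above, stood at 33.7, 31.9 and 30.1 CPM in KO, against 39.5, 41.7 and 46.5 CPM in WT. All KO values were below all WT values. The mean was 31.9 ± 1.80 CPM in KO and 42.6 ± 3.55 CPM in WT (SD, n = 3 each), a log2 ratio of -0.42 (SE 0.073, adjusted p = 3.51e-04). RCAN2, a related calcineurin inhibitor gene, stood at 6.59, 5.26 and 5.78 CPM in KO, against 28.9, 28.1 and 28.5 CPM in WT. Its fall of 2.28 on the log2 scale (SE 0.092, adjusted p = 6.97e-10) was the larger in size. RCAN3, the last gene of the family, averaged 3.45 CPM in KO and 1.87 CPM in WT and rose by 0.88 (SE 0.26, adjusted p = 0.0118), chosen here after its values were seen to complete the family.

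The 4 calcineurin-regulated NFATC genes split into a pair that was higher in KO and a pair that did not pass. NFATC1, known for its role in heart valve endocardium and in osteoclasts (Entrez 4772; chromosome 18, 79395930 to 79529323), stood at 16.7, 17.3 and 19.6 CPM in KO, against 13.8, 13.7 and 13.7 CPM in WT. Every KO value was above every WT value, and the spread was wider in KO. NFATC1 rose by 0.38 (SE 0.086, adjusted p = 0.00231). Endocardial and endothelial markers moved in the same libraries, with 12 of 15 tested higher and 2 lower in KO and a summed level of 839 to 911 CPM in KO and 338 to 352 CPM in WT. CDH5, their defining cadherin gene, averaged 1.29 CPM in KO and 0.708 CPM in WT, NPR3 averaged 1.23 CPM in KO and 2.69 CPM in WT, and CLDN5 had at most 3 counts in any library. All 3 tested osteoclast markers of 8 were higher in KO as well (39.8 to 44.8 CPM summed in KO, 11.4 to 12.2 CPM in WT), with OSCAR and OCSTAMP at no more than 3 counts. The part of these cells in the NFATC1 result was not tested.

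NFATC2, best known from T cells (Entrez 4773; chromosome 20, 51386963 to 51562839), stood at 32.4, 32.9 and 33.0 CPM in KO, against 23.8, 26.0 and 27.2 CPM in WT. KO libraries lay close together and above all WT libraries. The mean was 32.8 ± 0.313 CPM in KO and 25.7 ± 1.76 CPM in WT (SD, n = 3 each), a log2 ratio of 0.35 (SE 0.067, adjusted p = 7.21e-04). On FPKM the rise was smaller, with 3.40, 3.48 and 3.41 in KO, against 2.71, 3.07 and 3.18 in WT, and limma on log2(FPKM + 1) gave 0.15, which did not pass (adjusted p = 0.114, in a range of 3.58e-04 to 0.115 over the alternatives). Of 7 blood cell markers tested, 3 were higher and 1 lower in KO (median 1.48), and the list summed to 56.8 to 63.1 CPM in KO and 72.2 to 74.6 CPM in WT. The lower one, SPI1, averaged 14.6 CPM in KO and 61.9 CPM in WT and made up most of the WT sum. The higher ones were CD68, with 29.2 CPM in KO and 2.64 CPM in WT, LYZ, with 6.12 CPM in KO and 2.19 CPM in WT, and PTPRC, the pan-leukocyte gene, with 1.12 CPM in KO and 0.189 CPM in WT. CD3E, a T cell receptor complex gene, had at most 3 counts in any library. The part of such cells in the NFATC2 result was not tested.

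NFATC3 (Entrez 4775; chromosome 16, 68085370 to 68229259), an NFAT gene with a known role in hypertrophy in mouse, stood at 48.8, 55.4 and 52.5 CPM in KO, against 51.1, 48.0 and 48.5 CPM in WT. The groups overlapped, with a log2 difference of 0.086 (95% interval -0.044 to 0.22, adjusted p = 0.239). On FPKM its KO values of 8.37, 9.53 and 8.70 were all above the WT values of 7.97, 7.56 and 7.52. By limma on log2(FPKM + 1) the difference passed at 0.18 (adjusted p = 0.0369, in a range of 0.0369 to 0.606). ESRP2, a protein-coding gene overlapping NFATC3 on the other strand, averaged 6.13 CPM in KO and 9.44 CPM in WT, which did not pass. As with PPP3CB and its antisense gene, reads of this pair may not be separable. NFATC4, the NFAT gene first tied to the heart through its binding to GATA factors (Entrez 4776; chromosome 14, 24366911 to 24379604), stood at 45.9, 45.3 and 47.8 CPM in KO, against 45.6, 50.1 and 43.2 CPM in WT. WT values ran both below and above all KO values, and the log2 difference was 0.0014 (95% interval -0.14 to 0.14, adjusted p = 0.986). Per length, NFATC4 was the most abundant of the 4, with 42.5 ± 1.44% of their summed FPKM in KO and 46.5 ± 1.70% in WT, ranges that did not overlap (exact permutation p = 0.1). NFATC1 took 12.6 ± 1.24% in KO and 10.3 ± 0.809% in WT (exact permutation p = 0.1).

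**Figure D3:**
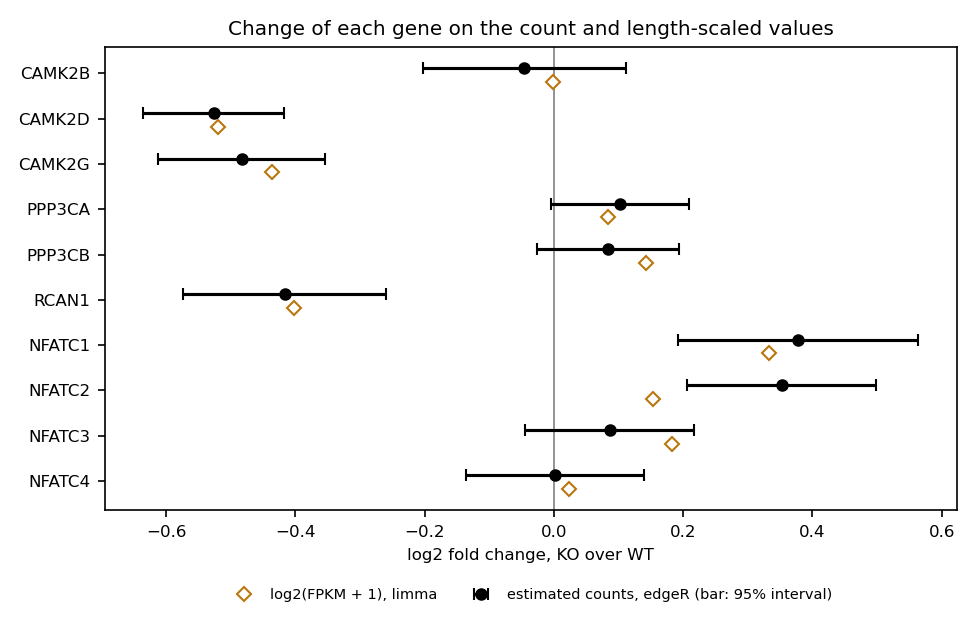
Log2 fold change, KO over WT, of each gene from estimated counts by edgeR (black, with 95% interval) and from log2(FPKM + 1) by limma (open diamonds). CAMK2D, CAMK2G and RCAN1 lie at -0.53, -0.48 and -0.42 on counts with FPKM values close by, whereas NFATC2 moves to 0.15 from 0.35, and PPP3CB and NFATC3 lie further right on FPKM.

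The 1 added to FPKM before the log makes folds of low genes smaller. For NFATC2 the log2 ratio of mean FPKM was 0.20, against 0.15 by limma on log2(FPKM + 1). Count and FPKM results also part where the transcript length implied by each pair of values differs between the groups. For NFATC2 this implied length was 9539, 9683 and 9617 bases in KO, against 8685, 8393 and 8497 bases in WT, 12.8% longer in KO on average. For NFATC3 it was 5840, 5951 and 5998 bases in KO, against 6351, 6288 and 6401 bases in WT, a difference of -6.57%. The difference was 2.52% for PPP3CA and -2.92% for PPP3CB, again without overlap (exact permutation p = 0.1 for each of these 4). Non-overlap of implied length was found for 4 of the 10 genes and for 35.1% of 11511 genes with at least 100 counts and an FPKM of 1 in every library. The implied lengths of NFATC1 and NFATC2, and that of NFATC3 in 2 WT libraries, exceeded their longest coding transcripts in GENCODE (4819, 7525 and 6328 bases). That of CAMK2G did so slightly in KO3 (3842 against 3824 bases). Implied lengths are therefore read only as ratios between libraries. Which transcripts made up each value was not analysed here.

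Ordered by FPKM, the levels in KO ran from CAMK2D (29.3), PPP3CB (24.4), PPP3CA (17.6) and RCAN1 (13.1) through NFATC4 (11.65), NFATC3 (8.87), CAMK2G (7.78) and CAMK2B (5.13) to NFATC1 (3.46) and NFATC2 (3.43). Only the last pair of neighbours overlapped in KO. In WT the order was CAMK2D (42.4), PPP3CB (21.97), RCAN1 (17.6), PPP3CA (16.6), NFATC4 (11.5), CAMK2G (10.9), NFATC3 (7.68), CAMK2B (5.13), NFATC2 (2.99) and NFATC1 (2.53). There RCAN1 and PPP3CA, NFATC4 and CAMK2G, and NFATC2 and NFATC1 overlapped. CAMK2D led in both groups. CAMK2G stood below NFATC3 in KO and above it in WT, without overlap in either group. RCAN1 and PPP3CA, and NFATC2 and NFATC1, also changed places, but these neighbours overlapped in WT.

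CAMK2D had the smallest p of the 10 genes, and its log2 CPM over the 6 libraries was correlated with that of 10839 other genes of at least 10 CPM. With unnamed gene models left out of the ranking, the highest correlations were those of MEF2A (r = 0.9998), HIBADH (r = 0.9993) and LATS2 (r = 0.9993). MEF2A encodes a transcription factor of the MEF2 branch named above, HIBADH a mitochondrial enzyme of valine breakdown and LATS2 a kinase of the Hippo pathway. MEF2A stood at 223, 230 and 202 CPM in KO, against 366, 350 and 367 CPM in WT. In these data 2291 genes had r above 0.95, since a difference between the groups alone gives a high r.

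Genes around the pathway were described list by list, by counts and medians, beside a median over all genes of 0.0011 and the shares over all genes of 57.0% called, 28.4% higher and 28.6% lower. The calmodulin, NFAT regulator and MEF2 lists had counts called near that share. Among calmodulin and calmodulin-dependent kinase genes outside the 10, 5 of 11 tested were higher and 2 lower in KO, with a median of 0.18. CAMKK1, which encodes an upstream kinase of CaM kinases, averaged 25.5 ± 2.14 CPM in KO and 13.2 ± 1.15 CPM in WT (SD, n = 3 each) and rose by 0.95. CAMK4, a nuclear calmodulin-dependent kinase gene, stood at 31.2, 30.2 and 28.9 CPM in KO, against 106, 108 and 110 CPM in WT, and fell by 1.85. CAMK2A was the other one lower.

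Among 13 calcineurin partner genes tested, 5 were higher and 7 lower, with a median of -0.16. MYOZ2, which encodes a Z-disc protein that binds and restrains calcineurin, averaged 43.6 ± 3.86 CPM in KO and 132 ± 1.97 CPM in WT and fell by 1.603, and RCAN2 fell by 2.28. LMCD1, a muscle LIM protein gene, rose by 0.94 and CIB1, which encodes an anchor of calcineurin at the muscle membrane, rose by 0.97. Among 15 NFAT regulator genes 4 were higher and 6 lower (median -0.099). HOMER3, a scaffold protein gene, rose by 0.95 and GSK3A, which encodes an NFAT export kinase, by 0.33, while DYRK1A, another NFAT kinase gene, fell by 0.33 and NFAT5, the calcineurin-independent relative of the NFATC genes, by 0.44.

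Upstream, 16 of 28 tested genes of calcium entry and Gq signalling were lower and 7 higher (median -0.21). The largest named fall was that of CACNA1C, the L-type calcium channel gene, at 72.2 ± 3.97 CPM in KO and 231 ± 6.75 CPM in WT (-1.68), and CACNA1H, a T-type channel gene, fell by 1.003. ITPR3, an inositol trisphosphate receptor gene, stood at 104, 103 and 121 CPM in KO, against 16.5, 19.0 and 19.8 CPM in WT, and rose by 2.57. RGS2, which encodes an inhibitor of Gq signalling, stood at 118, 116 and 96.4 CPM in KO, against 14.2, 14.9 and 16.7 CPM in WT, and rose by 2.85. The related receptor genes ITPR1 and ITPR2, chosen here after their values were seen, were lower, by -0.46 and -0.32 on the log2 scale. By limma on log2(FPKM + 1), ITPR1 passed as well (-0.28, adjusted p = 0.0386), but ITPR2 did not (-0.015, adjusted p = 0.884).

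Downstream, a list of 16 genes held MEF2 factors, class II histone deacetylases, protein kinase D genes, CREB-family and SRF factors and coactivators, of which 7 were lower and 1, HDAC4, was higher (median -0.089). Of its 8 MEF2 and deacetylase genes, 3 were lower, namely MEF2A, HDAC7 and HDAC9. HDAC4 encodes a class II deacetylase that CaMKII phosphorylates, and averaged 25.1 ± 0.0813 CPM in KO and 20.5 ± 0.627 CPM in WT (0.29, adjusted p = 0.00224), although on log2(FPKM + 1) it did not pass (adjusted p = 0.0607, in a range of 0.00107 to 0.0617). MEF2A fell by 0.73 and CREB1, a CaM kinase target, by 0.44. Of 12 genes whose products are CaMKII substrates in the heart, 9 were lower and 1 higher (median -1.06): MYBPC3 fell by 2.29 and RYR2, the calcium release channel gene, by 1.94, while the connexin gene GJA1 rose by 0.89. MYBPC3, RYR2, PLN and TTN are also on the cardiomyocyte marker list, whose median was -1.68. Of 13 hypertrophic target genes 7 were lower and 3 higher (median -0.54), with MYH7 at 42.0 CPM in KO and 262 CPM in WT (-2.64), MYH6 at -2.14, and the cytokine genes LIF at 3.19 and CLCF1 at 1.24. MYH6 and MYH7 are cardiomyocyte markers too. The target list was not split by the direction in which hypertrophic signalling moves each gene, so its counts and median give no direction of that signalling. Cardiomyocyte markers fell beside all of these lists, and chondrocyte markers, 10 of 10, were higher (1941 to 1966 CPM summed in KO, 481 to 490 CPM in WT). Fibroblast markers, with 10 higher and 3 lower of 14, summed to 15087 to 17755 CPM in KO and 10952 to 11224 CPM in WT. Endoderm markers, with 7 higher and 0 lower of 9, summed to 811 to 1360 CPM in KO and 301 to 456 CPM in WT. The part of these cell types in the list counts was not tested.

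**Figure D4:**
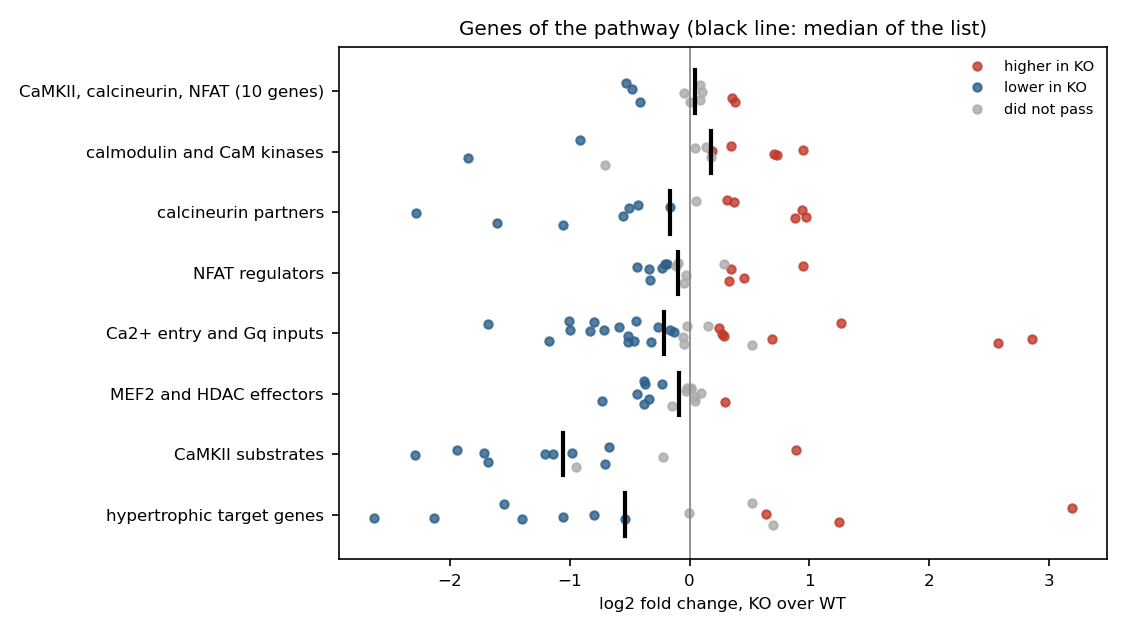
Log2 fold change, KO over WT, of every tested gene in the set of 10 and in 7 pathway lists, coloured by direction where it passed (red higher, blue lower, grey did not pass), with the list median as a black line. The set of 10 spans -0.53 to 0.38, whereas CaMKII substrates have a median of -1.06 and single genes of calcium entry and of the hypertrophic targets reach 2.85 and 3.19.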

How the data were processed

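The table the authors deposited holds 2 values for each gene in each sample, 1 a read count and 1 an unlabelled expression level, besides group means of the counts. Deposited read counts were treated as estimated counts, since 10.9 to 12.0% of values above 0 were exactly whole as deposited. The expression levels deposited by the authors were taken to be FPKM, with no unit in the header, since count, total and value implied nearly the same length in every sample (SD under 5% of the mean for 72.2% of 11511 genes). Another length-scaled unit that differs by a factor per library could pass the same check, so FPKM remains an assumption. The submitters' processing notes name the build hg38. Aligner, counter and annotation: not given in the sources used here. Symbols were taken by Entrez ID from RefSeq (23433 of 24137 IDs matched); the other 3955 rows are unnamed gene models, 1 of which took 11.4 ± 0.219% of counts in KO and 12.8 ± 0.316% in WT (SD, n = 3 each).

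The main test, on rounded estimated counts, was that of edgeR 4.0.16 under R 4.3.3 (filterByExpr with a minimum count of 10 and total of 15, TMM, robust quasi-likelihood, genotype alone). FPKM were tested with limma 3.58.1 on log2(FPKM + 1) where FPKM was at least 1 in 3 samples; such folds understate changes of low genes. Each standard error is approximate, being the log2 fold change over the square root of F. Shares and implied lengths were compared by exact two-sided permutation tests. On simulated counts for 19274 genes, the KO against WT test recovered 50.7% of 1.3-fold, 94.0% of 1.5-fold and 100% of 2-fold changes. The simulation changed only 67, 67 and 66 genes at these folds and gave all genes the same variation, unlike the data. Depth was 21179650 to 21405718 counts, so 3 counts stand for 0.142 CPM. The common biological coefficient of variation came to 0.0791. Pairs of replicates had chi-square values of 3.26 to 6.86 per degree of freedom, above sampling noise, and each counted as its own sample.

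The members, the lists and the tests were chosen with earlier results of these data known. All 10 genes and ADPRHL1 were named whatever their values, with the 2 risers and 2 fallers of smallest p in each pathway list among genes of at least 1 CPM, and the 3 genes, unnamed models aside, most correlated with the called gene of smallest p. A result that this rule names is not reported here. Marker lists of smooth muscle, epicardium, endoderm, epithelium, neural, skeletal muscle, fibroblast and pluripotent cells were also computed: called higher and lower were 5 and 9 of 14, 5 and 1 of 9, 7 and 0 of 9, 1 and 6 of 9, 3 and 5 of 11, 0 and 2 of 4, 10 and 3 of 14, and 0 and 2 of 5 tested. The alternatives took DESeq2 1.42.0, limma-voom, scaling by RLE, by upper quartile or by totals, other filters, named rows only, unrounded counts, FPKM with 2 pseudocounts (1 and 0.1), the replicate number as a block, and each replicate left out.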

Additional observations from a re-analysis of the deposited data

How the results depend on the processing

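The number of genes called moved by less than 1.5 times under all 18 alternatives, from 8182 on log2(FPKM + 0.1) to 11510 with no low-count filter, against 11151 in the main test, and was 10062 to 10597 with 1 replicate left out. Between 5 and 6 of the 10 genes were called under every alternative. CAMK2D, CAMK2G, RCAN1 and NFATC1 kept direction and call under all 18, while NFATC2 lost its call on FPKM only, and PPP3CA, PPP3CB and NFATC3 gained one under 2 alternatives each. NFATC4 changed sign with no low-count filter (-0.027) and between -0.055 and 0.055 with 1 replicate left out, never passing. The share of PPP3CB in its family (0.38 points higher in KO) was -1.35 points by summed counts and -0.23 to 0.95 with 1 replicate left out. By summed counts the NFATC3 share, 1.18 points higher in KO, was -1.49, and the CAMK2G and NFATC2 shares ranged from -0.32 to 0.49 and from -0.16 to 0.92 with 1 replicate left out. By summed counts the NFATC2 share moved to 2.94 points, against 0.41 on FPKM, that of PPP3CC to 2.17, against 0.66, and that of CAMK2B to 2.42, against 3.35. By construction the 2 kinds of share differ only through the implied lengths of the genes, and why these lengths differ was not tested. Same-numbered KO and WT replicates did not deviate together across genes (r = 0.023, -0.0081 and -0.013). This cannot show whether they were handled together, which the labels do not tell. With the replicate block 10702 genes and 5 of the 10 were called. In the simulation, at the depth of these libraries, 50.7% of 1.3-fold changes were recovered. It gave all genes the same variation and changed few of them, unlike the data, so this share need not hold for the 10 genes. Smaller changes and other depths were not simulated, and a p above the threshold for PPP3CA, PPP3CB or NFATC3 does not show that they did not differ.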
